A study of Mus musculus with 36 samples.

Results

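Semaphorins, plexins and neuropilins are the ligands, receptors and co-receptors of one guidance system, and 32 of the 24421 genes listed for both tissues belong to them by name. They were taken as every gene whose symbol begins with Sema and a class number from 3 to 7, or with Plxn and the letter a, b, c or d, together with Nrp1 and Nrp2. They comprise 20 semaphorins, 9 plexins, 2 neuropilins and Plxna4os1, an antisense RNA. Between 0 and 26 reads per library fell on Plxna4os1, which did not pass the filter on low counts and is not described further. The other 31 passed it in both tissues, with 44 to 14314 reads per library. Sema3a was singled out because earlier results of these data showed allele effects of opposite sign in the tissues, so its values are given as a description and its pattern was not tested.

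Class 3 semaphorins are secreted and bind neuropilins, which have a short cytoplasmic tail and signal together with class A plexins. Sema3e is the exception, since it binds Plxnd1 directly. Semaphorins of classes 4 to 6 span the membrane, Sema7a is held by a lipid anchor, and most of these act on plexins without a neuropilin. Plexins change the cytoskeleton of the receiving cell through small GTPases. The system is known for steering axons and migrating neurons in development, and for shaping synapses and vessels.

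RNA-seq was done on the cerebellum and the hippocampus of 18 adult C57Bl/6 mice, with 3 males and 3 females in each of 3 genotypes. Controls carried Pogzfl/fl without Cre, cKO+/- mice carried Pogzfl/+ with NesCre/+, and cKO-/- mice carried Pogzfl/fl with NesCre/+. Cre was driven by Nestin, thus in neural progenitors and the neurons and glia they give rise to, and since no control carried Cre, its presence and the deletion cannot be told apart in comparisons with controls. Between cKO+/- and cKO-/- mice, which both carried Cre, the deletion alone differed by the labels. Total counts per library ran from 21421850 to 32544929 for cerebellar samples, and hippocampal libraries summed to 17609321 at the lowest and 45544188 at the highest. Values are CPM, a gene's count scaled to a common library total after TMM normalization. Pogz itself fell in steps in the hippocampus, from 88.9 to 92.7 CPM in controls to 73.9 to 80.1 in cKO+/- and 58.6 to 67.7 in cKO-/-. In the cerebellum it ran from 89.5 to 129.5 CPM, 66.3 to 81.4 and 56.9 to 73.9, and the mutant groups overlapped. These counts cover the whole gene, of which only some exons were floxed, so they do not measure the deleted part alone.

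The libraries were not alike in composition. The hippocampal cKO-/- library of animal Sample_1160 had 73.9% of tested genes above or below all 17 other hippocampal libraries, against at most 17.4% for any other, and was left out of the hippocampal results below, with the 18-library values beside them. The hippocampal control library of animal Sample_1129 held 49.3 CPM of Gabra6, a granule cell receptor subunit of the cerebellum, against at most 1.09 CPM in the 17 others. Ttr, made by the choroid plexus, exceeded 500 CPM in 3 cerebellar and 5 hippocampal libraries. All 6 controls fell in one run of animal numbers, from Sample_1120 to Sample_1219, while 3 cKO+/- and 4 cKO-/- mice lay outside it. What the run stands for is not given in the sources used here, and a covariate for it was tried throughout. In bulk tissue, fewer cells of a type and less RNA per cell cannot be told apart.

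The genes for Sema3d, Sema3a, Sema3e and Sema3c lie in this order on the plus strand of mouse chromosome 5, within 5.35 Mb (GRCm38). The gaps between neighbours were 0.808 Mb, 0.422 Mb and 3.32 Mb. Their upstream sequences are shown because they are Sema3a and its neighbours, the 3 class 3 members called in at least 1 tissue. Each sequence is the 250 bases before the gene's start (RefSeq, GRCm38.p6, plus strand), with every CG dinucleotide in capitals.
Sema3d: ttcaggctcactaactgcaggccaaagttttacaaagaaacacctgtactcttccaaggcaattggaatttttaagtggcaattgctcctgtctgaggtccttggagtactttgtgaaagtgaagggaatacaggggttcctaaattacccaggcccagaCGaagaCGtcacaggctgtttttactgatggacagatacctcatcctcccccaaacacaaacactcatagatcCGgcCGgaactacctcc
Sema3a: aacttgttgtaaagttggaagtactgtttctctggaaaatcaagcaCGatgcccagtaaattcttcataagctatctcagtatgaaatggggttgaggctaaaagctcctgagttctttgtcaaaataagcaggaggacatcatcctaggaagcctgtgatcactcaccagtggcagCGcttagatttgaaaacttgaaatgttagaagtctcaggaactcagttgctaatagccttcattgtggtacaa
Sema3e: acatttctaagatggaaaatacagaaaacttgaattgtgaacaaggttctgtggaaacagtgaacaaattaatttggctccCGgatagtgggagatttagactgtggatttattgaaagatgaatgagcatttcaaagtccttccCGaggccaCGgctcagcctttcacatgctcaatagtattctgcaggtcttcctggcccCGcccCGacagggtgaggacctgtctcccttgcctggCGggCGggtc
Sema3c: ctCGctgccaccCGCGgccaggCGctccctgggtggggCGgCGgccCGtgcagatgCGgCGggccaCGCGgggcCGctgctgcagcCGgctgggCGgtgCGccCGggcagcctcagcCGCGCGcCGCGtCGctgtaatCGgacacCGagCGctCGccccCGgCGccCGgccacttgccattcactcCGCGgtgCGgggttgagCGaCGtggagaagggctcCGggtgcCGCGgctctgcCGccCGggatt
These windows span chr5:12382916-12383165 for Sema3d, chr5:13396534-13396783 for Sema3a, chr5:14025026-14025275 for Sema3e, chr5:17574566-17574815 for Sema3c. They held 4, 2, 7 and 39 CG dinucleotides in the same order, where the median over 32851 promoters of this length was 6 and 92.1% held at least 1. The Sema3c window was thus at the CG-rich end, with 98.7% of promoters holding as many or fewer, and the Sema3a window had the fewest of the 4. RefSeq promoters were at hand for 26 of the 32 genes.

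In controls the levels of the family differed between the tissues. In controls, 26 of 31 members differed between hippocampus and cerebellum by edgeR's quasi-likelihood test at an FDR of 0.05, against a background of 71.9% of 14224 genes, so that most of the transcriptome differed as well. Of these members, 14 were higher in the hippocampus and 12 in the cerebellum. Per exon length, the control means ranged from 0.675 to 90.7 RPKM in the cerebellum and from 0.6 to 49.9 RPKM in the hippocampus. Sema7a, the lipid-anchored member, was highest in both tissues, and its lowest cerebellar library (72.6 RPKM) lay above its highest hippocampal one (63.8 RPKM). Sema3a ranked 20 of 31 in the cerebellum and had the lowest mean of the 31 in the hippocampus. By medians Sema3b was lower there (0.519 RPKM), and its mean of 1.27 RPKM rested on Sample_1129 (3.94 RPKM) and Sample_1170 (1.75 RPKM), both with Ttr above 500 CPM.

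Nrp1 had the widest gap of the 31. Nrp1, the main co-receptor of Sema3a, ran from 1.46 to 2.02 RPKM in cerebellar controls (median 1.96) and from 21.9 to 29.8 RPKM in hippocampal ones (median 25), a 13.9-fold difference (log2 3.79 ± 0.103 SE, edgeR FDR = 1.54e-12). Nrp2, the co-receptor preferred by Sema3f, ran from 1.22 to 1.66 RPKM and from 7.65 to 10.5 RPKM (6.49-fold, edgeR FDR = 2.27e-11). For both, no library of one tissue reached the range of the other. Sema5b, a membrane semaphorin, was also higher in the hippocampus, at 4.92 to 6.74 RPKM (median 5.78) against 1.03 to 1.57 RPKM (median 1.19), which is 4.78-fold (edgeR FDR = 1.08e-09).

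In the other direction, Sema3a had the largest difference of the 31. Its cerebellar controls ran from 3.83 to 5.59 RPKM (median 4.61) and its hippocampal controls from 0.436 to 0.774 RPKM (median 0.599), 7.74-fold higher in the cerebellum. The ligand was thus higher in the tissue where its co-receptor Nrp1 was lower. The membrane semaphorin Sema4g was 4.12-fold higher in the cerebellum (23.7 to 30.7 against 5.14 to 8.03 RPKM, edgeR FDR = 2.89e-11), and Sema4c, a ligand of Plxnb2, was 2.7-fold higher (8.3 to 9.69 against 2.93 to 3.66 RPKM, edgeR FDR = 3.08e-10). Plxnb2 itself was 2.16-fold higher in the cerebellum, whereas Plxna1, Plxna2 and Plxna4, which pair with neuropilins, were 2.44-fold, 2.05-fold and 3.16-fold higher in the hippocampus. Plxna3, also of class A, went the other way and was 1.38-fold higher in the cerebellum (edgeR FDR = 0.00244). Sema3b, Sema3d, Sema4f, Plxnb3 and Plxnd1 did not pass the threshold.

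**Figure D1:**
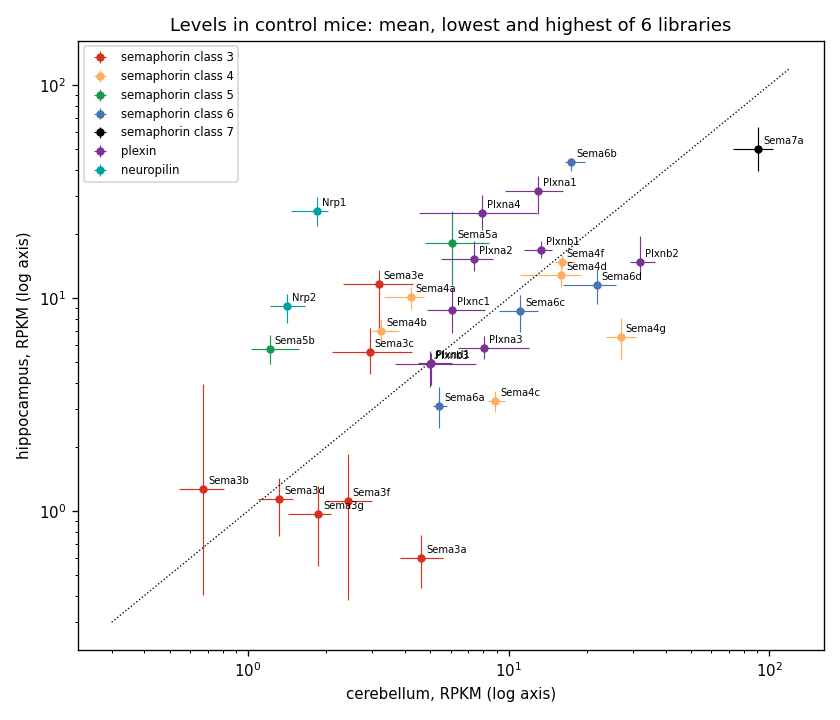
Mean RPKM of the 31 members in control cerebellum (x, log axis) and control hippocampus (y, log axis), with lines from the lowest to the highest of 6 libraries and a dotted line of equal level. Nrp1, Nrp2 and Sema5b lie far above the line, and Sema3a, Sema4g and Sema4c below it.

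In the cerebellum, the secreted semaphorins Sema3d and Sema3e and both neuropilins rose in the fit per Pogz allele lost, while 2 plexins fell. With the number of alleles as a quantity and sex in the model, 10 of the 30 members other than Sema3a passed an FDR of 0.05 in edgeR (33.3%), against a background of 13.7% of 14027 genes. Of these, 6 rose (20%, background 7.11%) and 4 fell (13.3%, background 6.55%). The median change of the 30 was 0.02 on the log2 scale per allele and that of all genes 0.00. By class, 2 of the 6 other class 3 semaphorins, both neuropilins, 2 of 9 plexins and 4 of the 13 membrane semaphorins passed.

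Sema3a had the largest cerebellar change of the family. It ran from 29.1 to 42.2 CPM in controls (median 34.6), from 36.7 to 67.5 in cKO+/- (median 53.1) and from 57.3 to 117.8 in cKO-/- (median 89.8). Every cKO-/- library lay above every control, and the per-allele log2 change was 0.66 ± 0.0741 (SE). With the covariate for animal numbers it was 0.75, and with scores for choroid plexus, meningeal and brainstem genes it was 0.84.

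Its neighbours Sema3e and Sema3d also rose. Sema3e, the ligand of Plxnd1, ran from 16.6 to 30.2 CPM in controls (median 22.1), 32.5 to 47.1 in cKO+/- (median 35.4) and 38.6 to 54.7 in cKO-/- (median 46.1), with a log2 change of 0.52 ± 0.062 per allele (edgeR FDR = 2.46e-05). Sema3d ran from 7.31 to 10 CPM, 11.9 to 16.1 and 10.1 to 19.6 (medians 9.2, 13.9 and 17.5), with a log2 change of 0.43 ± 0.0743 (edgeR FDR = 0.00106). In both genes the controls overlapped neither mutant group. They were also the only 2 members past the threshold in cKO+/- against control alone (edgeR FDR = 0.00204 for Sema3e and 0.0497 for Sema3d, background 0.342%). Between cKO-/- and cKO+/-, which share Cre, neither passed. Sema3e differed by 0.30 ± 0.107 (edgeR FDR = 0.35) and Sema3d by 0.22 ± 0.136 (FDR = 0.668). Sema3c, the last of the cluster, did not pass in this tissue and ran from 10.8 to 21.6 CPM in controls and 11 to 19.8 in cKO-/- (log2 change -0.08 ± 0.0833, edgeR FDR = 0.569).

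Among co-receptors, Nrp1 ran from 9.01 to 12.4 CPM in controls (median 11.9), 11.6 to 22 in cKO+/- (median 15.9) and 13.7 to 25.6 in cKO-/- (median 18.8), a log2 change of 0.36 ± 0.0829 per allele (edgeR FDR = 0.0089). Nrp2 ran from 10.2 to 13.8 CPM, 13 to 19.4 and 13.2 to 21.1 (medians 11.9, 15.6 and 16.1), a log2 change of 0.23 ± 0.0625 (edgeR FDR = 0.0234). Between cKO-/- and cKO+/-, Nrp1 differed by 0.17 ± 0.157 on the log2 scale (edgeR FDR = 0.803) and Nrp2 by 0.02 ± 0.111 (FDR = 0.988). The cKO-/- range of Nrp1 lay above the controls and that of Nrp2 overlapped them. Nrp2 lost the call without animal Sample_936 (edgeR FDR = 0.0559) or Sample_1190 (0.0613), and both lost it with the covariate for animal numbers, at 0.17 per allele for Nrp1 (edgeR FDR = 0.224) and 0.13 for Nrp2 (0.331).

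Among plexins, Plxnd1, the receptor of Sema3e, fell. It ran from 32 to 42.9 CPM in controls (median 35), 25.9 to 34 in cKO+/- (median 30.2) and 17.4 to 29.4 in cKO-/- (median 20.6), with a log2 change of -0.37 ± 0.0513 (edgeR FDR = 0.000124). Between cKO-/- and cKO+/-, which share Cre, it differed by -0.47 ± 0.101 (edgeR FDR = 0.0449). Its cKO-/- libraries all lay below the controls. Sema3e rose in both tissues, whereas the hippocampal log2 change of Plxnd1 was 0.02 ± 0.0728. A link between the 2 genes was not tested. Plxna3 fell from 45.6 to 85.8 CPM in controls (median 53.1) to 39.7 to 66.9 in cKO+/- (median 46.1) and 29.5 to 47.2 in cKO-/- (median 41.9), a log2 change of -0.26 ± 0.0774 (edgeR FDR = 0.035). The groups overlapped, and the call was lost without animal Sample_936, Sample_1129, Sample_1190, Sample_1371, Sample_1379 or Sample_1385 (edgeR FDR from 0.0518 to 0.102). The other 7 plexins did not pass. Between cKO-/- and cKO+/-, Plxna3 differed by -0.27 ± 0.159 (edgeR FDR = 0.652).

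Among membrane semaphorins, Sema5b and Sema6a rose and Sema4f and Sema6c fell. Sema5b ran from 4.85 to 7.38 CPM in controls (median 5.57), 4.91 to 9.08 in cKO+/- (median 6.35) and 7.98 to 12.4 in cKO-/- (median 9.85), with a log2 change of 0.41 ± 0.0762 (edgeR FDR = 0.00219). No cKO-/- library overlapped the controls. Between cKO-/- and cKO+/-, Sema5b differed by 0.55 ± 0.153 (edgeR FDR = 0.155) and Sema6a by 0.15 ± 0.086 (FDR = 0.65). Sema6a, which acts on class A plexins in the migration of cerebellar granule cells, ran from 36.4 to 40.9 CPM, 37.1 to 49.2 and 39.9 to 57.1 (medians 38.6, 42.4 and 49.1), a log2 change of 0.16 ± 0.0419 (edgeR FDR = 0.0199).

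Sema4f ran from 77.8 to 93.3 CPM in controls, 59.8 to 83.5 in cKO+/- and 47.5 to 81.6 in cKO-/- (medians 80.7, 73 and 62.1), a log2 change of -0.21 ± 0.0548 (edgeR FDR = 0.02, and 0.0509 without animal Sample_1385). Sema6c ran from 39.3 to 55.9 CPM, 33 to 42.9 and 27.4 to 46.9 (medians 50.8, 40.8 and 35.4), a log2 change of -0.21 ± 0.0582 (edgeR FDR = 0.0263). Both overlapped between the groups. Between cKO-/- and cKO+/-, Sema4f differed by -0.21 ± 0.113 (edgeR FDR = 0.616) and Sema6c by -0.11 ± 0.118 (FDR = 0.837). The call on Sema6c was lost without animal Sample_936, Sample_1129, Sample_1155, Sample_1172, Sample_1190, Sample_1371 or Sample_1385 (edgeR FDR from 0.0501 to 0.0709). Its gene starts 277 kb from the end of Pogz on chromosome 3.

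Between cKO-/- and control cerebella, 5 of the 30 other members did not overlap, namely Sema3d, Sema3e, Sema5b, Nrp1 and Plxnd1, against 4.56% of all genes. With the covariate for animal numbers, 4 of the 30 kept an FDR under 0.05 in edgeR (Sema3d, Sema3e, Sema5b and Plxnd1; background 2.2%). With the 3 tissue scores, Sema3e alone did (background 1.83%). Of the meningeal fibroblast genes 4 of 6 rose, with a summed level of 96.8 to 131.5 CPM in controls, 120.7 to 168.4 in cKO+/- and 118 to 227.9 in cKO-/-. Of the astrocyte genes 3 of 5 rose. Of the inhibitory interneuron genes 2 of 4 rose, their sum running from 769.2 to 1060 CPM in controls and 894.7 to 1404 in cKO-/-, and of the microglia genes 2 of 5 (62.6 to 69.8 and 63.9 to 106.8 CPM). No Purkinje cell or cerebellar granule cell gene passed, though the cerebellar granule cell sum ran from 5032 to 6017 CPM in controls and 3050 to 6394 in cKO-/-. Hippocampal pyramidal cell genes rose in 2 of 3 tested, dentate granule cell genes in 1 of 2, and midbrain and brainstem genes in 1 of 3. Of the endothelial genes 1 of 5 fell. No oligodendrocyte gene passed, with sums of 3599 to 5402 CPM in controls and 3859 to 8742 in cKO-/-. Over all genes, 7.11% rose and 6.55% fell. Beyond the score fit, the part of these marker genes in the results was not tested.

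**Figure D2:**
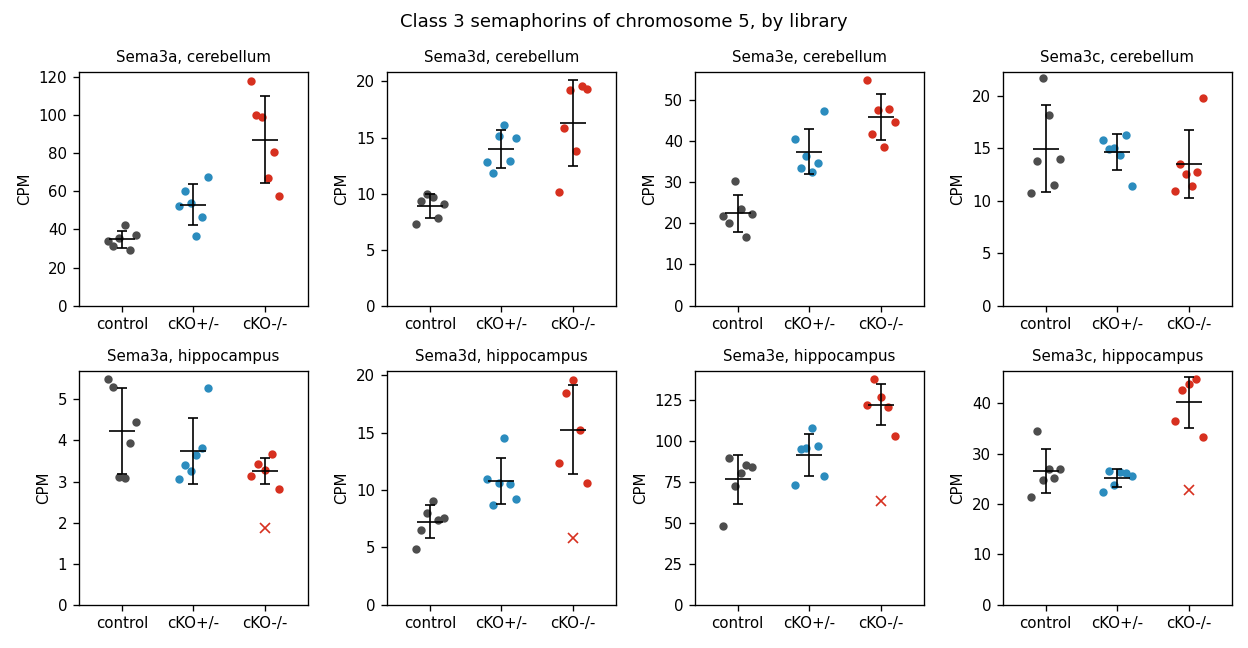
CPM of Sema3a, Sema3d, Sema3e and Sema3c by genotype in cerebellum (top) and hippocampus (bottom), each point a library, with the group mean and SD in black. The cross is the library of animal Sample_1160, left out of the mean. Cerebellar Sema3a reaches 117.8 CPM in cKO-/-, while hippocampal Sema3a is at most 5.51 CPM.

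In the hippocampus, Sema3d, Sema3e, Sema3c and Sema6a rose in the fit per allele lost. They were 4 of the 30 other members (13.3%) against a background of 4.44% of 14339 genes. All were in the rising direction, where the background was 2.09%, and 0 fell past the threshold in edgeR (background 2.35%), with 3 of the 30 lower at an unadjusted p under 0.05 (Plxna1, Plxna4 and Sema4b) and 0 with DESeq2. The median change of the 30 was 0.02 on the log2 scale per allele. Of the 6 other class 3 semaphorins 3 passed, of the 13 membrane semaphorins 1, and of the 11 plexins and neuropilins 0 in edgeR (3 at an unadjusted p under 0.05, and 0 with DESeq2).

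Sema3d ran from 4.84 to 9.07 CPM in controls (median 7.45) and 8.69 to 14.5 in cKO+/- (median 10.6), and its 5 cKO-/- libraries read 10.6, 12.4, 15.2, 18.5 and 19.6 CPM. The log2 change was 0.54 ± 0.0863 per allele (edgeR FDR = 0.0012). Sema3e ran from 48.4 to 89.7 CPM in controls (median 82.2) and 73.4 to 107.8 in cKO+/- (median 95.4), and cKO-/- libraries read 103.3, 121, 122.3, 126.9 and 138.3 CPM (log2 change 0.33 ± 0.0568, edgeR FDR = 0.00228). For both genes every cKO-/- library lay above every control, and no further member was without overlap. Over all genes, 3.64% did not overlap, counted in either direction. Between cKO-/- and cKO+/-, which share Cre, neither gene passed. Sema3d differed by 0.50 ± 0.175 (edgeR FDR = 0.182) and Sema3e by 0.41 ± 0.115 (FDR = 0.111). The library of animal Sample_1160, left out here, read 5.84 CPM of Sema3d and 63.4 CPM of Sema3e, both within the control range.

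Sema3c was highest in cKO-/- mice. It ran from 21.4 to 34.5 CPM in controls (median 26) and 22.3 to 26.6 in cKO+/- (median 25.8), and cKO-/- libraries read 33.3, 36.4, 42.6, 43.7 and 44.7 CPM. The per-allele log2 change was 0.28 ± 0.0697 (edgeR FDR = 0.0256), while cKO-/- against cKO+/- gave 0.67 ± 0.103 (edgeR FDR = 0.00364). The lowest cKO-/- library lay within the control range, and the difference of its allele effect from the cerebellum was 0.36 ± 0.114 (edgeR FDR = 0.117). Sema6a ran from 16.2 to 25.4 CPM in controls (median 20.9) and 20.9 to 33.6 in cKO+/- (median 26), and cKO-/- libraries read 25.3, 26.9, 29.9, 30.6 and 30.7 CPM (log2 change 0.24 ± 0.0585, edgeR FDR = 0.0264). Between cKO-/- and cKO+/-, Sema6a differed by 0.13 ± 0.116 (edgeR FDR = 0.539).

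These hippocampal calls depended on the libraries and covariates that entered. Sema3c lost its call without animal Sample_1190, Sample_1371, Sample_1379 or Sample_1385 (edgeR FDR from 0.0549 to 0.0892), and Sema6a without animal Sample_1129, Sample_1155, Sample_1170, Sample_1190, Sample_1371 or Sample_1385 (0.0504 to 0.0746). With all 18 libraries 0 of the 30 passed in edgeR (background 1.72%, 7 at an unadjusted p under 0.05), with FDR = 0.0527 for Sema3d, 0.0616 for Sema3e, 0.147 for Sema3c and 0.238 for Sema6a. With the covariate for animal numbers 0 passed (background 0.474%, 4 at an unadjusted p under 0.05), at log2 changes of 0.44 for Sema3d, 0.31 for Sema3e, 0.26 for Sema3c and 0.17 for Sema6a. With the tissue scores 0 passed (background 0.251%, 3 at an unadjusted p under 0.05), at 0.38, 0.38, 0.42 and 0.17 in the same order. In the libraries with Ttr under 500 CPM, Sema3d alone passed (edgeR FDR = 0.0294, background 0.823%). The directions of all 4 were the same in each of these fits. In cKO+/- against control 0 of the 30 passed in edgeR (background 0.0349%, 8 at an unadjusted p under 0.05). Meningeal fibroblast genes summed to 34.1 to 103 CPM in controls and 64.8 to 177.3 in cKO-/- (1 of 6 rising), and 2 of 5 endothelial and 1 of 5 astrocyte genes rose. Of the dentate granule cell genes 3 of 5 fell. The sum of all 5 ran from 372.1 to 690 CPM in controls and 255.2 to 346.7 in cKO-/-. Of the hippocampal pyramidal cell genes 1 of 6 fell, and of the thalamus and striatum genes 1 of 6. Over all genes, 2.09% rose and 2.35% fell. The part of these marker genes in the results was not tested beyond the score fit.

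The per-allele change of hippocampal Sema3a had the opposite sign to that in the cerebellum. Controls ran from 3.08 to 5.51 CPM (median 4.2) and cKO+/- from 3.07 to 5.29 (median 3.52), and the cKO-/- libraries read 2.82, 3.13, 3.27, 3.43 and 3.67 CPM. The groups overlapped throughout, and the log2 change was -0.19 ± 0.0852 per allele. The highest control was the library of animal Sample_1129, which holds cerebellar markers, and without that animal the change was -0.14 ± 0.0845. At 1.87 CPM, the library of animal Sample_1160 was lower than all 17 others.

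Whether an allele effect differed between the tissues was tested as an interaction in 35 libraries. Of the 30 other members, 3 passed an FDR of 0.05 in edgeR (10%), against 1.49% of 13587 genes. All 3 passed the threshold in the cerebellum and did not in the hippocampus. Sema5b, with a hippocampal log2 change of -0.04 ± 0.0673 per allele, differed by -0.46 ± 0.102 (edgeR FDR = 0.0144). Plxnd1 had a hippocampal change of 0.02 ± 0.0728 and differed by 0.38 ± 0.0907 (FDR = 0.0219). Nrp1 had a hippocampal change of -0.02 ± 0.0422 and differed by -0.39 ± 0.0949 (FDR = 0.0282).

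Each of these calls was lost without some animals. Sema5b lost it without Sample_1155, Sample_1190, Sample_1371, Sample_1379 or Sample_1385 (edgeR FDR from 0.0521 to 0.0658). Plxnd1 lost it without Sample_936, Sample_1129, Sample_1172, Sample_1190, Sample_1192, Sample_1371 or Sample_1379 (0.0538 to 0.0751). Nrp1 lost it without Sample_936, Sample_1129, Sample_1155, Sample_1172, Sample_1190, Sample_1192, Sample_1371, Sample_1379 or Sample_1385 (0.0507 to 0.114). In all 3 genes the hippocampal groups overlapped. Sema5b ran from 21.7 to 29.6 CPM in hippocampal controls and its cKO-/- libraries read 22, 22.1, 22.5, 24.7 and 30.5 CPM. Plxnd1 ran from 26 to 36.8 CPM in controls, with cKO-/- libraries at 26.4, 32.7, 35.9, 37.4 and 38.1 CPM. Nrp1 ran from 126.2 to 169.9 CPM, with cKO-/- libraries at 136.4, 141.6, 145.1, 148.6 and 153.2 CPM. Sema3a, chosen for its opposite allele effects in these data, had the largest difference of the family, -0.86 ± 0.119. It ranged from -0.92 to -0.79 when each animal was left out, which is a description and no support for its pattern. Its neighbours Sema3d and Sema3e rose in both tissues and differed by 0.10 ± 0.119 and -0.19 ± 0.0889 (edgeR FDR = 0.792 and 0.32).

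**Figure D3:**
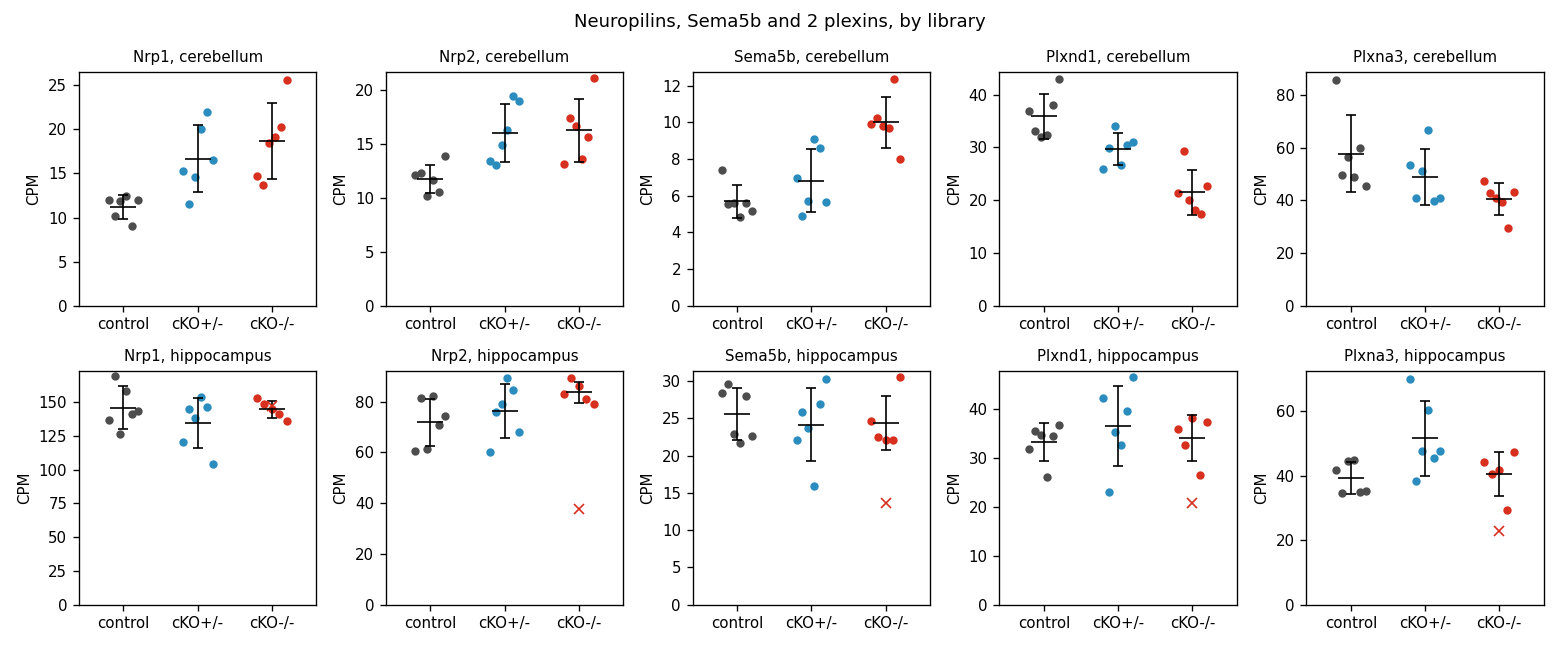
CPM of Nrp1, Nrp2, Sema5b, Plxnd1 and Plxna3 by genotype in cerebellum (top) and hippocampus (bottom), each point a library, with group mean and SD in black and the library of animal Sample_1160 as a cross. The cerebellar groups step up for Nrp1 and Sema5b and down for Plxnd1, while the hippocampal groups overlap.

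Each animal gave both tissues, so the fit was repeated with the animal as a replicate block. It also called 3 of the 30 other members (background 2.49%). In this paired fit Sema5b missed the threshold (-0.45 ± 0.118, edgeR FDR = 0.0521) and Sema4f passed it (0.21 ± 0.0376, FDR = 0.0087), whereas Nrp1 (FDR = 0.0366) and Plxnd1 (0.0201) were called in both. With the covariate for animal numbers 0 of the 30 passed in edgeR (4 at an unadjusted p under 0.05) and Sema3a differed by -1.06 ± 0.14.

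**Figure D4:**
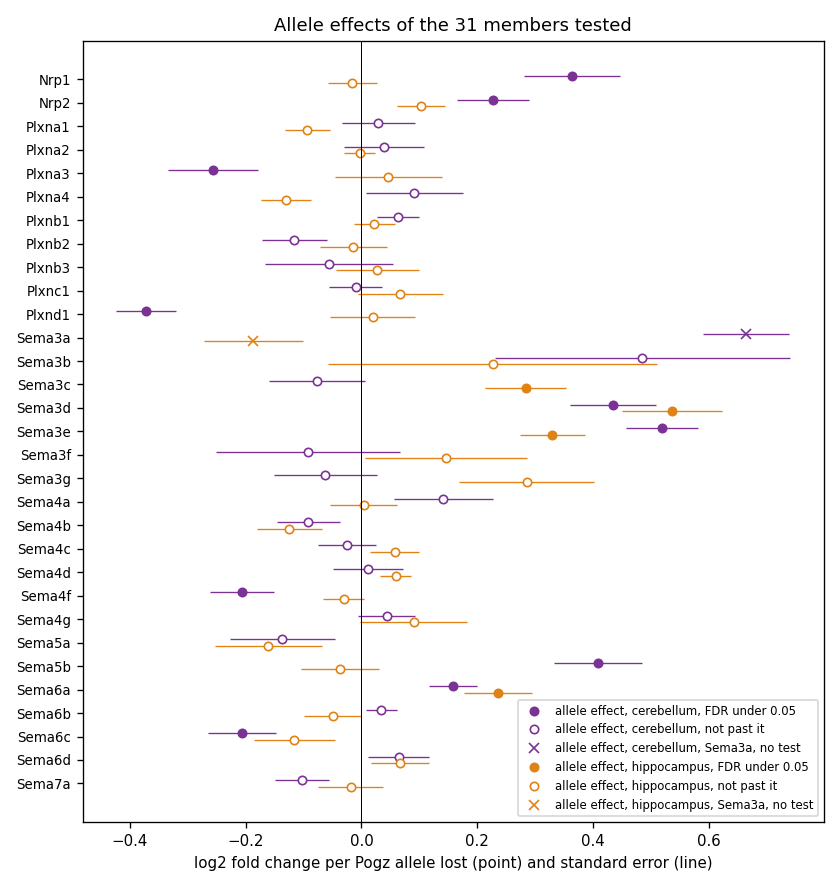
Log2 fold change per Pogz allele lost (points) with its standard error (lines) for the 31 members in cerebellum and hippocampus, filled where the edgeR FDR is under 0.05, with Sema3a as crosses. Sema3a is the point farthest right in the cerebellum at 0.66 and farthest left in the hippocampus at -0.19, while Sema3d and Sema3e are right of 0 in both.

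Between males and females, 0 members passed the threshold in the cerebellum (background 0.0499%, 4 at an unadjusted p under 0.05, and 0 with DESeq2). In the hippocampus 1 did, Plxna1, a partner of the neuropilins, which was 1.22-fold higher in males (log2 0.29 ± 0.0621, edgeR FDR = 0.0346, background 0.907%). That call was lost with all 18 libraries, and when animal Sample_938, Sample_1120, Sample_1129, Sample_1170, Sample_1172, Sample_1189, Sample_1190, Sample_1192, Sample_1219 or Sample_1385 was left out (edgeR FDR from 0.0516 to 0.0751).

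The partners and effectors of the pathway were counted from lists of textbook members. Of 16 co-receptors and other partners, 12 were tested in the cerebellum and 1 rose (8.33%, against 7.11% of all genes rising and 13.7% called in either direction). It was Itgb1, the integrin chain that Sema7a engages (log2 change 0.13 ± 0.0362 per allele, edgeR FDR = 0.0216). In the hippocampus 3 of 14 rose (21.4%, against 2.09% of all genes rising and 4.44% called in either direction). Chl1, a cell adhesion partner of neuropilins, went from 202 to 240 CPM in controls to 265.1 to 339.6 in cKO-/- (0.20 ± 0.0388, edgeR FDR = 0.00721), without overlap. Met, a receptor kinase that associates with plexin B, had a log2 change of 0.41 ± 0.103 (FDR = 0.0275), and Kdr, a VEGF receptor that pairs with neuropilins, one of 0.32 ± 0.0827 (FDR = 0.0344).

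Of 27 cytoplasmic effectors, 1 rose and 3 fell in the cerebellum (14.8%, near the 13.7% of all genes), and 1 rose and 1 fell in the hippocampus (7.41%, against 4.44%). Dpysl3, of the collapsin response mediator family that relays Sema3a signals, rose in the cerebellum (0.33 ± 0.0963, edgeR FDR = 0.0287). Its relatives Dpysl4 (-0.24 ± 0.0709, FDR = 0.0299) and Dpysl5 (-0.13 ± 0.0392, FDR = 0.0394) fell in that tissue, as did Mical2, an actin oxidase of the plexin pathway (-0.21 ± 0.0593, FDR = 0.028). In the hippocampus Dpysl3 rose as well (0.16 ± 0.0442, edgeR FDR = 0.0416). Sh3bp1, a GTPase-activating protein that acts on Rac, fell from 20.5 to 24.6 CPM in controls to 12.6 to 18.6 in cKO-/- (-0.30 ± 0.0475, edgeR FDR = 0.000945), without overlap. In the interaction test 0 partners or effectors passed in edgeR, 4 had an unadjusted p under 0.05 (L1cam, Chl1, Flt1 and Limk1), and DESeq2 called 0. The hippocampal calls on partners and effectors are those of the main fit without Sample_1160. How they stood in the other fits is not given here.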

How the data were processed

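Poly(A) RNA was sequenced from 36 libraries. Per the labels and the study's methods, the authors aligned reads with STAR (v250a), naming mm9, and deposited raw counts per gene. The gene coordinates in the deposited tables match GRCm38. The annotation, strand use and handling of multi-mapping reads are not given in the sources used here, so a gene overlapping an antisense transcript may share its reads. By the deposited coordinates, no member shared exons with a listed gene on the opposite strand. Nrp1 alone shared exons with another listed gene, Mir1903 on the same strand. Some other members had listed genes within their span without shared exons, such as Plxna4os1 in Plxna4. 0 library pairs were identical. The filter required more than 1 CPM in 6 or more libraries (14027 in the cerebellum and 14339 in the hippocampus).

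Counts were fitted in edgeR 4.0.16 (R 4.3.3) with TMM scaling and the quasi-likelihood test, modelling sex together with Pogz dosage (2, 1 or 0 working alleles), and p-values were adjusted by Benjamini-Hochberg over all genes tested. Fold changes are given per allele lost. RPKM used the deposited exon lengths. The study left out 1 RNA sample that it does not name. The hippocampal library of Sample_1160 was taken to be it, because an earlier analysis of these files matched the study's statistics only without that library. The interaction was fitted on 35 libraries of 13587 genes. DESeq2 1.42.0, other scalings and filters, covariates and leaving out each animal were alternatives. Fits restricted to libraries with Ttr under 500 CPM, or without the hippocampal library of Sample_1129, were chosen after seeing the data. Scripts were tested on simulated data.

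The family, the pathway and marker lists and the tests were chosen with earlier results of these data known. Values in full were given for Sema3a, for every member past an FDR of 0.05 in an allele effect or the interaction, and for the 3 members with the largest tissue differences in each direction. Pathway genes were named where they passed the threshold in an allele effect, at most 4 per list and tissue by smallest p. Genes named for an unadjusted p, and Plxna1 for the sex difference, were chosen after their values were seen.

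Sample numbers in the titles link the tissues of 1 animal. Over 17 animals, the deviations of both tissues from their group means had a median correlation of 0.194 (lowest -0.159, highest 0.43), above 0.1 in 14.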

Additional observations from a re-analysis of the deposited data

Results flagged for a closer look

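Of 72 groups of libraries of the named members, 4 held a library far from its neighbours, and chance alone flags about 1 in 20 groups. Among cerebellar controls, Sample_1129 had 85.8 CPM of Plxna3 (nearest library 59.9) and 7.38 CPM of Sema5b (nearest 5.63). Sample_936 had 19.8 CPM of Sema3c among cKO-/- cerebella (nearest 13.5). Sample_938 had 5.29 CPM of Sema3a among cKO+/- hippocampi (nearest 3.81).

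The allele effect differed between the tissues by the interaction test for 3 members other than Sema3a. Hippocampal minus cerebellar log2 changes were -0.455 for Sema5b, 0.383 for Plxnd1 and -0.385 for Nrp1. For Sema3a the difference was -0.857, given as a description because the gene was chosen for it.

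In the hippocampal library of Sample_1160, which entered no main comparison, 4 members lay above every control. Against all 17 other hippocampal libraries, 3 members were higher (Sema6b, Sema6c and the antisense RNA Plxna4os1), 16 were lower and 13 lay within their range.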

How the results depend on the processing

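The number of members called is given here for each comparison. In the cerebellum and the interaction it holds Sema3a, which was chosen for its allele effects. Each such count is thus 1 lower over the 30 other members. In the cerebellum it was 11, against 5 with the covariate for animal numbers, 2 with the tissue scores and 8 to 11 when each animal was left out. In the hippocampus it was 4, against 0 with that covariate, 0 with the scores, 0 with all 18 libraries, 1 with low-Ttr libraries and 2 to 5 when each animal was left out, with 2 without Sample_1190, Sample_1371 or Sample_1385. For the interaction it was 4, against 1 with the covariate, 2 with low-Ttr libraries and 1 to 4 when each animal was left out, with 1 without Sample_1190, Sample_1371 or Sample_1379 and 2 without Sample_1129, Sample_1155, Sample_1172, Sample_1192 or Sample_1385. For sex in the hippocampus it was 1, against 4 with DESeq2, 2 with RLE scaling, 0 with all 18 libraries, 0 with low-Ttr libraries and 0 to 3 when each animal was left out. For the tissues it was 26, against 25 to 26 when each animal was left out and 27 without the filter. With the animal as a replicate block the interaction called 4 members and the tissue comparison 26. The cause of these differences was not tested.

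Over all genes, the cerebellum had 1916 calls, against 308 with the covariate and 257 with the scores. The hippocampus had 636, against 1056 with DESeq2, 246 with all 18 libraries, 68 with the covariate, 36 with the scores and 118 with low-Ttr libraries. The interaction had 203, against 337 with DESeq2, 338 with the paired block, 10 with the covariate and 117 with low-Ttr libraries. Sex had 130 in the hippocampus, against 625 with DESeq2, 6 with all 18 libraries and 6 with low-Ttr libraries, and 7 in the cerebellum, against 17 with DESeq2.

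Of 638 alternative values of 26 fold changes of called members and Sema3a, 553 kept direction and side of the threshold, 85 kept direction and missed the threshold, and 0 reversed. Sema3a, chosen for its allele effects, gave 28 values for each allele effect, 28 for the interaction and 13 for the tissue difference. All of them are among the 553, so the tally is not support for its pattern. The other fold changes were followed because they were called in these same libraries, so the tally does not test their direction. Counts were lowest for Plxna4os1, at 0 to 26 reads per library, which was not testable at this depth.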
